A study of Arabidopsis thaliana with 9 samples.

Results

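Beta-expansins of Arabidopsis thaliana were followed through anthers of 3 genotypes, wild type, dyt1 and ams. The family was defined by locus as EXPB1 (AT2G20750), EXPB2 (AT1G65680), EXPB3 (AT4G28250), EXPB4 (AT2G45110) and EXPB5 (AT3G60570). Of these 5 genes, 4 had a probe set naming them alone, among 13356 genes with such a probe set, and each of the 4 was read by 1 probe set. EXPB4 was not analysed here. EXPB1 drew attention to the family because its level in dyt1 differed from wild type on these same arrays, so its differences that involve dyt1 are given as a description without a test.

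The data are 9 Affymetrix arrays of anthers dissected at stages 4 to 7 from young floral buds, with 3 arrays for each of wild type Columbia, the dyt1 mutant and the ams mutant. The labels call the 3 samples of a genotype biological replicates, and name neither the mutant alleles nor the number of plants per sample. The labels give no treatment, and all plants were grown under the same long-day conditions. DYT1 and AMS are bHLH transcription factors of the tapetum, the anther wall layer that nourishes the developing microspores, and DYT1 acts upstream of AMS.

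Expansins are small secreted proteins that loosen plant cell walls without cutting their polymers, by disturbing the contacts between cellulose and the matrix polysaccharides at acidic pH. Plants have alpha-expansins, beta-expansins and 2 families of expansin-like proteins, EXLA and EXLB, for which no wall-loosening activity is established. Beta-expansins are best known from grasses, where some are secreted in bulk by pollen and are major allergens. The beta-expansins of Arabidopsis are less studied, and no separate function in the anther is assumed here for any of them.

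All levels are log2 expression values per probe set, normalized with RMA by the authors. A group mean at or under 4.77, the highest of the 9 arrays' lower quartiles, could not be told from background, and no fold is given for a gene with such a mean. Levels of different genes were read by different probes and are not set against each other.

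The 25S and actin control signals divided the wild type arrays and the dyt1 arrays, while all 3 ams arrays fell in the same set. Wild type 1 and 2 and dyt1 1 and 3 had 25S ribosomal RNA signals between 5.51 and 9.59, and wild type 3, dyt1 2 and all 3 ams arrays between 11.5 and 12.4. The actin signal at the 3′ end exceeded that at the 5′ end, a measure of RNA integrity, by 1.04 to 1.38 in the first set and by 2.103 to 2.92 in the second. The poly-A spike-in controls averaged 3.71 and 3.73 in wild type 1 and 2 and between 5.90 and 6.39 in the other 7 arrays. The AMS probe set was at 7.55 to 7.93 in wild type, 3.96 to 5.66 in dyt1 and 9.36 to 9.61 in the arrays labelled ams. The position of this probe set against the ams mutation is not known here, so it checks nothing about that label. DYT1 was not analysed here.

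EXPB1 was above background in all 9 arrays and stood highest in dyt1. Its level was 5.62, 5.62 and 5.07 in wild type 1, 2 and 3. It was 7.27, 7.33 and 7.23 in dyt1 1, 2 and 3, and 5.77, 6.37 and 5.39 in ams 1, 2 and 3. All 3 dyt1 arrays lay above all 6 others, while wild type and ams overlapped. The dyt1 arrays, from both 25S sets, lay within 0.10 of each other. The ams arrays, all of high 25S signal, spread over 0.98. The wild type arrays spread over 0.55, with wild type 3, of high 25S signal, the lowest. The part of the 25S signal in these levels was not tested.

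The group means of EXPB1 were 5.44 ± 0.32 (SD, n = 3) in wild type, 5.85 ± 0.49 in ams and 7.28 ± 0.051 in dyt1, in rising order. The log2 difference of dyt1 from wild type was 1.84, or 3.58-fold, and that of dyt1 from ams was 1.43, or 2.70-fold. These 2 comparisons share the dyt1 arrays. Between wild type and ams, neighbours in the order, the difference was 0.41 with a 95% interval from -0.17 to 1.00, and it did not pass (limma adjusted p = 0.389). The wild type arrays also entered the difference for which EXPB1 was chosen. This last test is therefore not independent of that choice, and no conclusion is drawn from it.

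The EXPB1 difference of dyt1 from wild type was present in both 25S sets. It was 1.63 among the low-25S arrays, 2 against 2, where genotype cannot be told apart from the spike-in level. Among the high-25S arrays it was 2.26, with dyt1 2 alone against wild type 3 alone. Leaving out 1 array at a time moved it between 1.66 and 1.93. In the high-25S set dyt1 2 stood above the mean of the 3 ams arrays by 1.48.

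**Figure D1:**
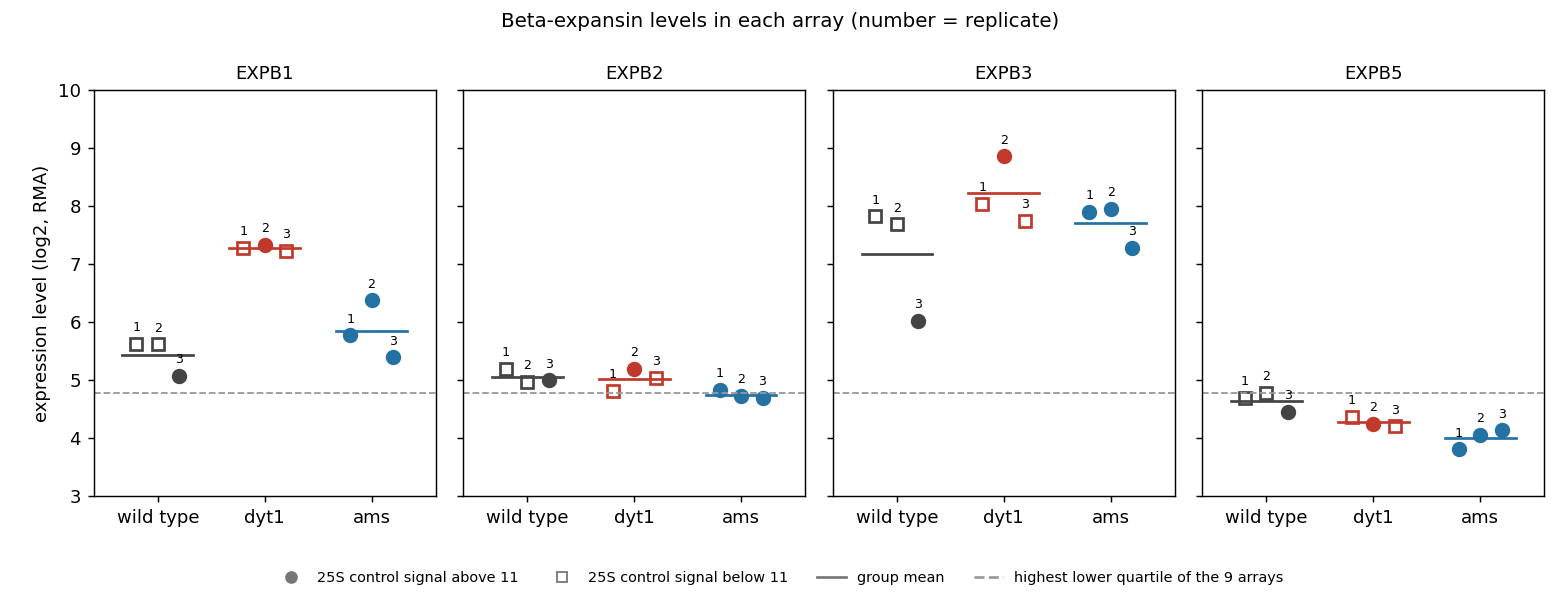
Level of each measured beta-expansin (log2, RMA) in the 9 arrays by genotype, with replicate numbers, filled circles for arrays with 25S control signal above 11, open squares for those below, a bar for the group mean and a dashed line at 4.77, the background level. EXPB1 in the 3 dyt1 arrays lies between 7.23 and 7.33, above the other 6 arrays, and EXPB3 in wild type 3 lies at 6.02, apart from wild type 1 and 2. Heights are not comparable between panels, since each gene has its own probes.

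EXPB3 was above background in all 9 arrays and spread more widely among the wild type arrays than between the genotype means. It stood at 7.82, 7.68 and 6.02 in wild type 1, 2 and 3. It stood at 8.04, 8.85 and 7.75 in dyt1 1, 2 and 3, and at 7.90, 7.94 and 7.28 in ams 1, 2 and 3. Wild type 3 was the lowest array and dyt1 2 the highest, and the 3 genotypes overlapped.

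EXPB3 averaged 7.17 ± 1.00 (SD, n = 3) in wild type, 7.71 ± 0.37 in ams and 8.21 ± 0.57 in dyt1. None of its differences passed. That of dyt1 from wild type was 1.04 (95% interval -0.073 to 2.15, limma adjusted p = 0.374), that of ams from wild type 0.53 (-0.58 to 1.65, adjusted p = 0.562) and that of dyt1 from ams 0.51 (-0.61 to 1.62, adjusted p = 0.603).

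Much of the spread of EXPB3 lay in wild type 3 and dyt1 2, the arrays whose 25S signal departs from the rest of their genotype. Among the low-25S arrays, dyt1 differed from wild type by 0.14. In the high-25S set the difference of dyt1 2 from wild type 3 was 2.83, and that of the ams arrays from wild type 3 was 1.69. Both rest on single arrays and are given as values with no test. Without wild type 3 the difference of ams from wild type was -0.043, so its sign rested on that array.

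EXPB2 gave a weak signal near background in every array. It was at 5.19, 4.97 and 4.99 in wild type 1, 2 and 3. It was at 4.82, 5.20 and 5.04 in dyt1 1, 2 and 3, and at 4.84, 4.73 and 4.69 in ams 1, 2 and 3. Wild type and dyt1 overlapped, and all 3 ams arrays lay below all 3 wild type arrays.

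The mean of EXPB2 in ams, 4.75 ± 0.075 (SD, n = 3), could not be told from background, and those in wild type and dyt1 were 5.05 ± 0.12 and 5.02 ± 0.19. The differences of signal were -0.033 for dyt1 from wild type (95% interval -0.37 to 0.30, limma adjusted p = 0.940), -0.30 for ams from wild type (-0.63 to 0.035, adjusted p = 0.275) and 0.27 for dyt1 from ams (-0.067 to 0.60, adjusted p = 0.329). The first became 0.10 with quantile normalization applied again. EXPB2 lies next to EXPB6, another beta-expansin, in the TAIR10.1 gene order of RefSeq; EXPB6 is outside the family as defined here.

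EXPB5 had no group mean above background. Its signal was 4.70, 4.79 and 4.46 in wild type 1, 2 and 3. It was 4.37, 4.25 and 4.21 in dyt1 1, 2 and 3, and 3.81, 4.06 and 4.13 in ams 1, 2 and 3. The 3 genotypes did not overlap, with wild type above dyt1 and dyt1 above ams.

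Mean EXPB5 signals were 4.65 ± 0.17 (wild type), 4.27 ± 0.084 (dyt1) and 4.00 ± 0.17 (ams; SD, n = 3). The difference of ams from wild type was -0.65 (95% interval -0.99 to -0.31) and did not pass (limma adjusted p = 0.0562). It passed without wild type 3 (adjusted p = 0.0146) or without dyt1 2 (adjusted p = 0.0445). It did not pass without wild type 1 (adjusted p = 0.190) or wild type 2 (adjusted p = 0.176). That of dyt1 from wild type was -0.37 (adjusted p = 0.309) and that of dyt1 from ams was 0.27 (adjusted p = 0.327). With a floor at the 20th percentile these 3 differences were, in the same order, -0.32, -0.30 and 0.018. At these levels the values are differences of signal, and whether EXPB5 was transcribed was not detectable.

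Over the 3 members other than EXPB1, 0 passed in each of the 3 comparisons, where limma called 0.193% of all 22746 probe sets in dyt1 against wild type, 3.51% in ams against wild type and 4.87% in dyt1 against ams. At an unadjusted p under 0.05 in the limma fit, EXPB5 was counted in each mutant against wild type, and neither EXPB2 nor EXPB3 was counted in any comparison. Of all probe sets 14.5%, 21.6% and 22.3% were below that threshold in the 3 comparisons. Of all probe sets 0.0747% were called higher in dyt1 against wild type and 2.45% in dyt1 against ams, and 0 of the same 3 members were in either. EXPB1 is left out of these counts, since it was chosen with its difference of dyt1 from wild type known. Its difference of dyt1 from ams shares the dyt1 arrays.

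Of the same 3 members, 1 (EXPB5) had groups that did not overlap in dyt1 against wild type, where 18.4% of all probe sets did. In ams against wild type 2 did (EXPB2 and EXPB5), against 29.5%, and in dyt1 against ams 1 did (EXPB5), against 33.8%. EXPB1 is not counted here, since its separation in dyt1 is what drew attention to it. In dyt1 the means of EXPB1 and EXPB3 lay above wild type and those of EXPB2 and EXPB5 below, with EXPB2 at -0.033. Against ams, all 4 means lay higher in dyt1, as did those of 13271 of all 22746 probe sets. None of these differences passed for EXPB2, EXPB3 or EXPB5, so neither a shared nor a split direction is read from them.

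Across the 9 arrays the pair with the most similar pattern was EXPB1 and EXPB3, with Pearson's r of 0.72 and Spearman's rho of 0.90. For EXPB2 and EXPB5 r was 0.51. Over the 7 arrays without wild type 3 and dyt1 2 the order of these pairs turned, with r of 0.56 for EXPB1 and EXPB3 and of 0.63 for EXPB2 and EXPB5. Over all 9 arrays the other 4 pairs had r between -0.22 and 0.21. These correlations describe arrays that share genotypes and 25S sets.

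**Figure D2:**
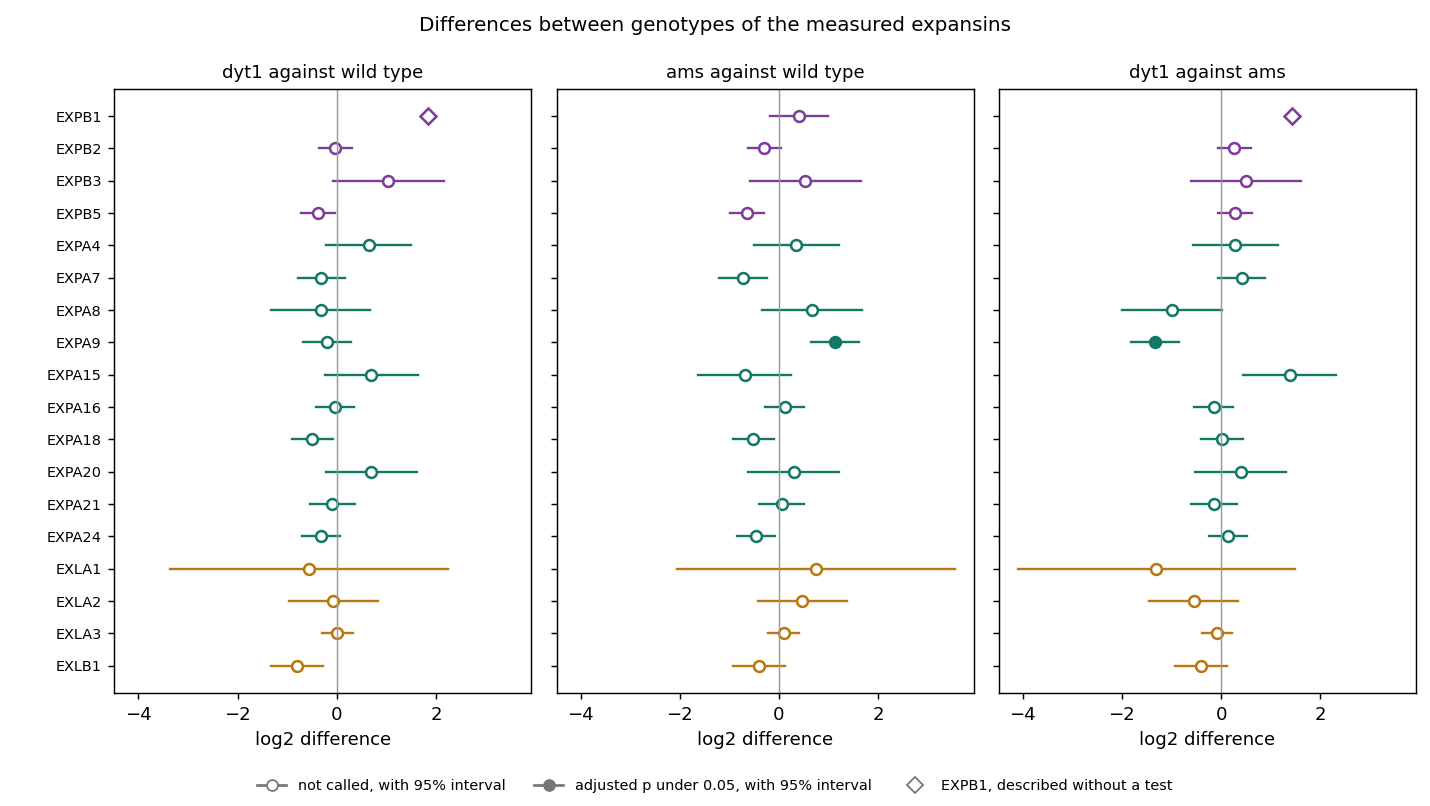
Log2 difference of each measured beta-expansin, alpha-expansin and expansin-like gene in the 3 comparisons, with the 95% interval of limma, not adjusted for the number of probe sets. Filled circles mark an adjusted p under 0.05, open circles the rest, and open diamonds EXPB1 where its difference is a description (1.84 and 1.43). EXPA9 is the 1 filled gene, higher in ams than in wild type and lower in dyt1 than in ams.

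The other expansins gave the setting for these values. Of 26 alpha-expansins 10 had a probe set of their own, and EXPA22, EXPA23, EXPA25 and EXPA26 were read by probe sets naming several genes and left out. The rest had no listed probe set in the annotation used. All 4 expansin-like genes were measured. The 14 genes were EXPA4, EXPA7, EXPA8, EXPA9, EXPA15, EXPA16, EXPA18, EXPA20, EXPA21, EXPA24, EXLA1, EXLA2, EXLA3 and EXLB1. At an unadjusted p under 0.05 by limma, 2, 4 and 2 of the 14 were counted in the 3 comparisons, beside the 14.5%, 21.6% and 22.3% of all probe sets. In dyt1 against wild type 0 of the 14 passed after adjustment, with a median log2 difference of -0.14 and a range from -0.80 to 0.70. In ams against wild type and in dyt1 against ams 1 passed, EXPA9 each time, with medians of 0.11 and -0.11. The shares of all probe sets that passed were 0.193%, 3.51% and 4.87% in the 3 comparisons. The medians of all probe sets in the 3 comparisons were 0.046, -0.055 and 0.072.

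EXPA9 rose in ams, where EXPB1 did not pass. Its level was 5.26, 5.06 and 4.74 in wild type 1, 2 and 3. It was 4.84, 4.51 and 5.11 in dyt1 1, 2 and 3, and 6.21, 6.36 and 5.90 in ams 1, 2 and 3. All 3 ams arrays lay above all 6 others, and wild type and dyt1 overlapped.

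The EXPA9 difference of ams from wild type was 1.14 (SE 0.21, limma adjusted p = 0.0259), or 2.20-fold, and that of dyt1 from ams was -1.34 (adjusted p = 0.0120). Its difference of dyt1 from wild type was -0.20 (adjusted p = 0.699). The call in ams was lost without wild type 1 (adjusted p = 0.0593) or 2 (0.0838), without ams 1 (0.103), 2 (0.117) or 3 (0.0501), and with the replicate number as a block (0.0619). That in dyt1 against ams was lost without dyt1 1 (adjusted p = 0.0507), ams 1 (0.0578) or ams 2 (0.0562). The ams arrays all had high 25S signal, and with wild type 3 as the lone control the difference was 1.41, a value with no test.

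EXPA15, like EXPB1, had its highest group mean in dyt1, and none of the EXPA15 differences passed in the fit to all 9 arrays. It stood at 9.75, 9.46 and 8.16 in wild type 1, 2 and 3, at 9.71, 10.4 and 9.39 in dyt1 1, 2 and 3, and at 8.70, 8.44 and 8.18 in ams 1, 2 and 3. All dyt1 arrays lay above all ams arrays, and wild type 3 lay level with ams 3, below wild type 1 and 2. Its difference of dyt1 from ams was 1.38 (limma adjusted p = 0.0933), which passed without wild type 3 (adjusted p = 0.0152). That of dyt1 from wild type was 0.69 (adjusted p = 0.474) and was -0.054 among the low-25S arrays. That of ams from wild type was -0.69 (adjusted p = 0.367), and without wild type 3 it was -1.17 and passed (adjusted p = 0.0318).

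EXLA1 had its lowest value in 1 dyt1 array. It was at 9.46, 9.32 and 10.9 in wild type 1, 2 and 3, at 11.1, 5.87 and 11.01 in dyt1 1, 2 and 3, and at 10.6, 10.4 and 10.8 in ams 1, 2 and 3. The dyt1 values lay at both ends of the range, with dyt1 2 far below the other 8 arrays. Its differences did not pass: -0.56 for dyt1 from wild type (limma adjusted p = 0.869), which turned to 1.17 without dyt1 2, 0.75 for ams from wild type (adjusted p = 0.760) and -1.31 for dyt1 from ams (adjusted p = 0.591), which turned to 0.42 without dyt1 2. The same array held the lowest level of A9, a tapetum-specific gene, at 4.68 against 11.1 and 10.8 in dyt1 1 and 3. EXPB1 in dyt1 2, at 7.33, lay with the other dyt1 arrays.

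EXPA4, EXPA20 and EXLA2 were the other genes above background in every genotype. EXPA4 ranged from 7.28 to 8.91 and EXPA20 from 6.30 to 8.22, each highest in dyt1 2. EXLA2 ranged from 6.62 in dyt1 2 to 8.21 in ams 1. Their differences of dyt1 from wild type were 0.64, 0.70 and -0.075, with limma adjusted p values of 0.461 to 0.948, and none passed in the other comparisons. The remaining 8 genes stayed between 3.82 and 6.03 in all arrays and none passed.

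**Figure D3:**
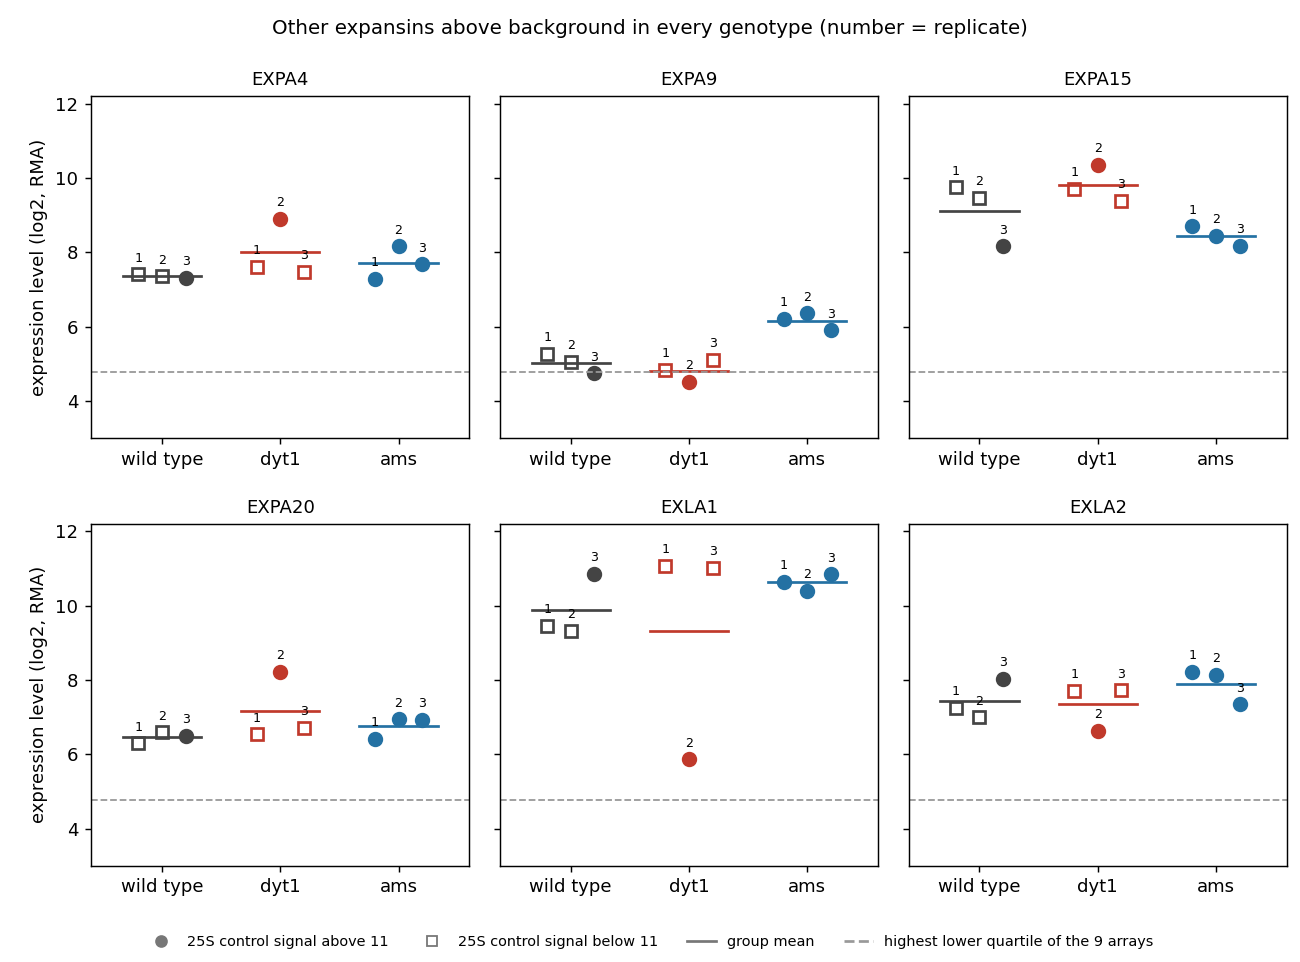
Levels (log2, RMA) of the 6 alpha-expansins and expansin-like genes above background in every genotype, drawn as in the plot of beta-expansin levels. EXPA9 is higher in the 3 ams arrays, between 5.90 and 6.36, and dyt1 2 lies apart from dyt1 1 and 3 in EXPA4, EXPA20, EXLA1 and EXLA2.

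Of 33 XTH genes, which encode enzymes that cut and rejoin the wall polymer xyloglucan, 10 were measured. In each of the 3 comparisons 0 passed by limma, beside 0.193%, 3.51% and 4.87% of all probe sets. Their median log2 differences were 0.012, 0.054 and -0.027. XTH16, XTH27, XTH32 and XTH33 had a group mean above background. In the annotation used, no probe set named 1 of the 11 AHA proton pumps, which acidify the wall and so set the pH at which expansins act. They were not analysed here. That annotation left 8730 probe sets unlisted, so a missing name does not show that the array lacks the gene.

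Markers of anther cell types describe the tissue behind these levels. The 3 measured of 10 tapetum markers, A9, ATA27 and AMS, averaged 9.24 to 10.7 over the wild type arrays, 4.11 to 6.92 over the dyt1 arrays and 9.59 to 10.7 over the ams arrays. In ams the markers went different ways, and the average hides this: A9 stood at 9.99 to 10.4 against 12.9 to 13.1 in wild type, AMS at 9.36 to 9.61 against 7.55 to 7.93, and ATA27 at 9.09 to 11.99 against 7.13 to 11.6. In dyt1 each of the 3 tapetum markers lay below its wild type arrays, but not evenly. A9 stood at 11.1 and 10.8 in dyt1 1 and 3, above all ams arrays, and at 4.68 in dyt1 2. In dyt1 against wild type AMS passed (limma adjusted p = 0.0288), while A9 and ATA27 did not (adjusted p = 0.251 and 0.152). EXPB1 was high in all 3 dyt1 arrays, and the part of the tapetum markers in the EXPB1 difference was not tested. In whole anthers, fewer cells of a type and less RNA per cell cannot be told apart.

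The 2 measured of 7 meiocyte markers, SDS and SPO11-1, averaged 4.79 to 6.32 in wild type, 5.02 to 5.88 in dyt1 and 5.16 to 6.24 in ams. The 2 measured of 5 markers of maturing pollen, ANX1 and ANX2, averaged 3.63 to 4.15 over all arrays, below the background level. The 2 measured of 5 green tissue markers, LHCB4.1 and LHCB4.2, averaged 10.96 to 11.2 in wild type, 10.9 to 11.4 in dyt1 and 11.6 to 11.97 in ams. INO, the 1 measured of 5 pistil and ovule markers, stood at 5.63 to 6.26, 4.67 to 5.33 and 5.19 to 5.93. By these averages the tapetum and pistil values of dyt1 and the green tissue values of ams lay wholly outside the wild type range. The pollen signals of ams did too, but could not be told from background in any genotype. The green tissue separation came from LHCB4.2, at 11.03 to 11.58 in ams against 10.04 to 10.18 in wild type. LHCB4.1 overlapped, at 12.15 to 12.36 against 11.87 to 12.31.

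The 5 genes whose pattern was most like that of EXPB1, by Pearson's r over the 9 arrays among 9904 genes with a group mean above background, were AT2G23840 (0.97), AT5G66560 (0.97), AGL87, a MADS-box gene (0.96), AT2G30120 (0.96), and QKY (0.95), which encodes a membrane protein with C2 domains needed for organ shape. Each had its 3 highest values in the 3 dyt1 arrays, a pattern that the choice by likeness to EXPB1 favours. Over the 6 wild type and ams arrays alone, r with EXPB1 was 0.94, 0.92, 0.88, 0.78 and 0.84 in the same order, with wild type 3 the lowest array in each. AGL87 had group means of 5.85 ± 0.46 (wild type), 7.37 ± 0.18 (dyt1) and 6.43 ± 0.25 (ams; SD, n = 3). Those of AT2G23840 lay closer together, at 5.43 ± 0.13, 5.93 ± 0.054 and 5.56 ± 0.19. With 9 arrays and so many genes, high values of r are found for any gene, and these name a pattern only.

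**Figure D4:**
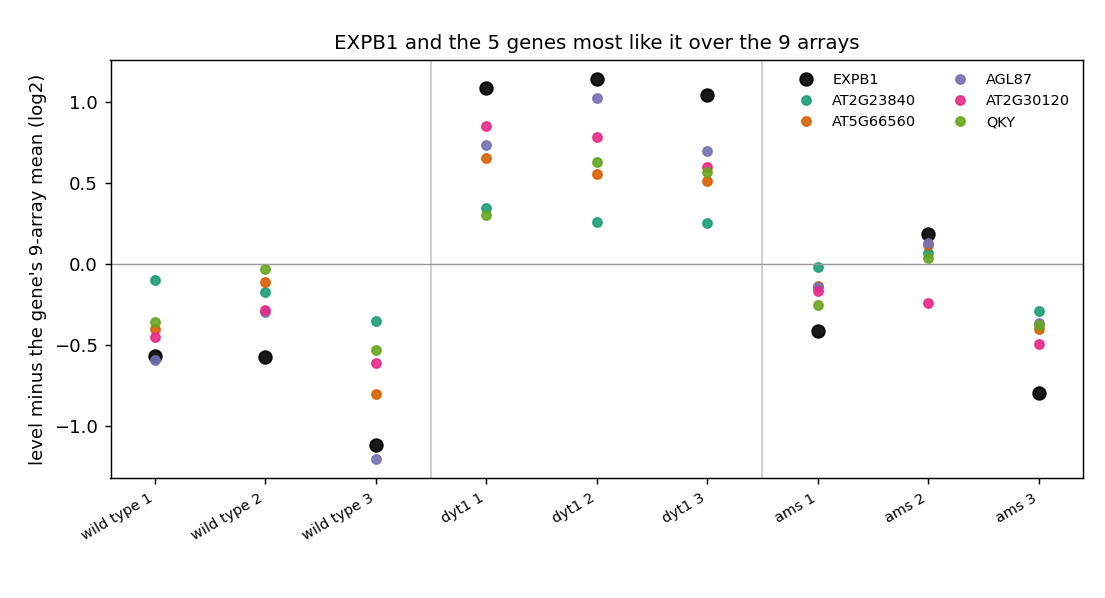
Level of EXPB1 and of the 5 genes with the highest Pearson's r to it, each minus its own mean over the 9 arrays (log2). All 6 genes are above their mean in the 3 dyt1 arrays and below it in the 3 wild type arrays, and ams 2 is the highest of the ams arrays for EXPB1, at 6.37.

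The genes most like EXPB3 were AT4G03100 (r = 0.96), RALFL34, which encodes a small secreted signalling peptide (0.95), and AT4G15830 (0.94). Their r fell to 0.55, 0.53 and 0.73 over the 7 arrays without wild type 3 and dyt1 2, so the likeness rested mostly on those arrays. For EXPB2 they were AT1G51160 (0.99), AT1G73120 (0.95) and AT5G49430 (0.94), with r of 0.99, 0.96 and 0.96 over the same 7 arrays. None was sought for EXPB5, which had no group mean above background.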

How the data were processed

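The deposited table held log2 expression values for 22810 probe sets in 9 arrays, and RMA is the tool that the authors' processing notes name, without a version. It subtracts background, equalises the arrays by quantiles and combines the probes of a set, and folds of dim probe sets come out compressed. The values carry no detection calls, so the lower quartiles of the arrays stood in for background. Control probe sets (64) were not tested.

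Of the annotated probe sets, 13513 named 1 gene, 503 named several and 8730 probe sets were unlisted. Of the 13513, 13436 took RefSeq TAIR10.1 symbols. A gene with several probe sets was represented by the one with the highest mean. The build behind the array is not given, so no coordinates are printed.

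Group means were fitted to all 9 arrays with limma 3.58.1 (lmFit, eBayes) in R 4.3.3, with Benjamini-Hochberg adjustment over 22746 probe sets, and called at an adjusted p under 0.05. The number of arrays limits the precision. The fit was tested on simulated data. The members, lists, markers and alternatives were chosen with earlier results of these data known. Named genes were the measured members, the other measured expansins, called XTH and AHA genes, and the genes of highest Pearson's r to a member (5 for EXPB1, 3 for others). Alternatives covered normalization, a floor, filters, variance models, blocks, 25S sets and leaving out arrays.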

Additional observations from a re-analysis of the deposited data

How the results depend on the processing

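The differences of EXPB1 kept their sign in every alternative tried: from 1.63 to 2.26 in dyt1 against wild type (2.26 with only arrays of high 25S signal), from 1.20 to 1.69 in dyt1 against ams and from 0.15 to 0.77 in ams against wild type. Centring each array on its median moved the median of all probe sets from 0.046 to -0.065 in dyt1 against wild type and from -0.055 to -0.17 in ams against wild type. Same-numbered arrays had deviations from their group means correlated at -0.012 to 0.24. No differently numbered arrays are set beside these, so the values do not decide whether the label numbers pair the arrays. With the replicate block the calls in the 3 comparisons went from 44, 798 and 1108 to 54, 545 and 729, and the alpha-expansins and expansin-like genes called in ams against wild type from 1 to 0.

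With array weights, which called 8744, 8916 and 8956 probe sets, EXPB5 was lower in dyt1 (-0.49) and ams (-0.72) and EXPB2 in ams (-0.37), and 7, 7 and 4 of the 14 other expansins were called. In dyt1 against wild type EXPA15 became -0.17, EXLA1 1.46 and EXLA2 0.49, and in dyt1 against ams EXPA4 became -0.19, EXPA20 -0.028 and EXLA1 0.31. With an intensity trend EXPB5 passed in ams (-0.65). With quantile normalization again EXPB2 in dyt1 was 0.10. In the fit of only the 6 arrays compared, 2 other expansins were called in dyt1 against ams, beside 1979 of all 22746 probe sets. With library set as a block, EXPA4 and EXPA20 in ams were -0.079 and -0.25.

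With only arrays of high 25S signal, where wild type 3 and dyt1 2 stand alone, EXPB2 in dyt1 was 0.21, EXPB3 2.83 in dyt1 and 1.69 in ams, and EXPA15, EXLA1 and EXLA2 in ams 0.27, -0.24 and -0.14; 3 and 5 other expansins were called in dyt1 against wild type and against ams. With only low 25S signal, EXPA15, EXLA1 and EXLA2 in dyt1 were -0.054, 1.66 and 0.59. There 3 other expansins were called, beside 4449 of all 22746 probe sets. Without wild type 3 and dyt1 2, EXPA15, EXLA1 and EXLA2 in dyt1 were again -0.054, 1.66 and 0.59. In the same setting EXPB3 and EXPB5 in ams were -0.043 and -0.74. In dyt1 against ams EXPA4, EXPA20 and EXLA1 were -0.17, -0.13 and 0.42. Other expansins called in the 3 comparisons were 2, 8 and 2, beside 3720, 7862 and 5958 of all 22746 probe sets. With high 25S signal the fit takes the spread of lone arrays from the ams arrays. With low 25S signal genotype cannot be told apart from spike-in level, and without wild type 3 and dyt1 2 wild type cannot be told apart from low spike-in level, nor ams from high 25S signal.

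Leaving out 1 array at a time gave, in dyt1 against wild type, -0.12 to 0.068 for EXPB2, -1.44 to 1.17 for EXLA1 and -0.29 to 0.29 for EXLA2. In ams against wild type it gave -0.043 to 0.86 for EXPB3, -0.74 to -0.55 for EXPB5 and 0 to 4 other expansins called. In dyt1 against ams it gave -0.17 to 0.55 for EXPA4, -0.13 to 0.71 for EXPA20, -2.18 to 0.42 for EXLA1 and 0 to 2 called. Without wild type 3, 4 were called in ams and 2 in dyt1 against ams. All probe sets called there were 4146 and 2945 of 22746. The cause of these changes was not tested. The filter on dim probe sets gave no value for EXPB5.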
